A study of Mus musculus with 4 samples.

Results

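Wdfy1, Ocel1, Hebp1, Cdk5rap1, Slc15a2, Wdr89, Glud1, Idh1 and Rgcc are 9 of the 32285 genes in the deposited matrices. They were picked by symbol because, in these tumours, their RNA differed between the 2 genotypes in many cell classes at once and not in the epithelium alone. The values that chose them are the within-class genotype contrasts given here, so those contrasts are a description and carry no test. Single-cell RNA profiles came from 4 whole prostate tumours, 1 per mouse, from libraries that read the 3' end of each transcript and count it once by its unique molecular identifier (UMI). The 2 PCSp mice carried, among other alleles, PB-Cre, Chd1L/L, SpopF133V and mTmG, and the 2 PSp mice carried the same alleles without the floxed Chd1. All 4 mice were castrated at 9 months, and the tumours were taken 1 month afterwards. PB is the probasin promoter, which drives the Cre recombinase in prostate epithelium, so alleles that need Cre are recombined there and are unrecombined in stroma, vessels and leukocytes unless Cre leaks. Chd1 encodes a chromatin remodeller, and Spop a protein that brings substrates to a ubiquitin ligase.

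The members do not form 1 pathway. Idh1, the cytosolic NADP-dependent isocitrate dehydrogenase, and Glud1, the mitochondrial glutamate dehydrogenase, both make 2-oxoglutarate, which links citrate and amino acid metabolism. Cdk5rap1 modifies mitochondrial transfer RNAs, and Slc15a2 encodes PEPT2, a proton-coupled carrier of di- and tripeptides. Wdfy1 is an endosomal adaptor of Toll-like receptors, Hebp1 binds haem, and Rgcc is a regulator of the cell cycle first described as a response gene to complement. Wdr89 encodes a protein of WD repeats, and Ocel1 is named for its similarity to occludin and to the elongation factor ELL.

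The promoters of 4 members with unlike patterns over the classes are shown first: Slc15a2, Hebp1 and Cdk5rap1, whose shifts vary widely in size between classes, and Wdr89, whose shifts vary less. They are the 250 bases before the RefSeq start (GRCm38.p6), read 5' to 3' on the gene's strand. Slc15a2 lies at chr16:36784963-36785212, Hebp1 at chr6:135168216-135168465, Cdk5rap1 at chr2:154372720-154372969 and Wdr89 at chr12:75669538-75669787, all on the minus strand. Capitals mark the motifs found by an exact search of both strands. These were the CCAAT box (CCAAT), the GC box (GGGCGG, written CCGCCC on the other strand), the E-box CACGTG and the cyclic AMP response core TGACGT.
Slc15a2: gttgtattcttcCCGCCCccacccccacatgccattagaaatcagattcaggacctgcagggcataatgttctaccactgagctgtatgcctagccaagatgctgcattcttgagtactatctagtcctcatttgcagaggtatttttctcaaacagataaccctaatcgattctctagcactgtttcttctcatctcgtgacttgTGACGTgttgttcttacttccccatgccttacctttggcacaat
Hebp1: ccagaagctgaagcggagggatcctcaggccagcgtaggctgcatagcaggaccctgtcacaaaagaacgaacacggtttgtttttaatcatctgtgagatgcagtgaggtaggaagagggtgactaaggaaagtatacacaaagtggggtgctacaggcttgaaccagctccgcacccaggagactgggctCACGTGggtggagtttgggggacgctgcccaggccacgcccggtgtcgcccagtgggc
Cdk5rap1: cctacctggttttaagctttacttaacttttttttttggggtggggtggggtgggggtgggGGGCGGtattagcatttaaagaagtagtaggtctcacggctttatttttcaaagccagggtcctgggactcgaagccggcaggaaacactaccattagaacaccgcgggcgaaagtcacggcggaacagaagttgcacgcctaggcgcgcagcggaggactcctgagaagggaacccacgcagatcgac
Wdr89: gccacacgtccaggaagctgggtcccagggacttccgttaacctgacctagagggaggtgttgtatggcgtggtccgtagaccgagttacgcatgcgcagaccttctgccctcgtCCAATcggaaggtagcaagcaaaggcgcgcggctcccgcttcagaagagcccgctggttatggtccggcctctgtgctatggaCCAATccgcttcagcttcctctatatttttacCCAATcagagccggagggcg
RefSeq promoters matched 8 of the 9 members, Idh1 with 2 starts, which gave 9 promoters; Wdfy1 was not matched. A GC box stood in 7 of these 9, against 32.7% of 32851 promoters of the same length. A CCAAT box stood in 3 of 9, against 33.8%, and the Wdr89 promoter holds 3 copies of it. CACGTG was found only in the Hebp1 promoter (6.02% of all promoters) and TGACGT only in that of Slc15a2 (6.47%). The TATA box TATAAA (12.4%) and the ETS motif CCGGAAGT (2.88%) were in none of the 9. The member promoters had a median of 58.8% G and C, against 52.4% over all promoters, and a median of 18 CpG, against 6. A match is a string of letters and not a shown binding site.

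The libraries held 90839725 and 66874620 UMIs in PCSp mice, against 75339204 and 86435756 in PSp mice, and 5211 to 7883 cells per mouse were kept. Cells were clustered and named from marker genes. Of the named classes, 6 had at least 50 cells in every mouse: epithelial, fibroblast, endothelial, macrophage and monocyte, neutrophil, and T and NK cells. Levels are counts per 1000000 UMIs of the class (CPM), and a shift is the log2 fold change of PCSp over PSp with its standard error (SE), from the sums of 2 mice per genotype. The markers that named a class summed to between 5376.5 and 34507 CPM in that class in each mouse. Markers of other classes moved with genotype as well: the 10 fibroblast markers summed to 494 and 408 CPM in the epithelium of PCSp mice, against 318 and 235 CPM in PSp mice, and were higher in both PCSp mice in each of the 4 other classes too, as in T and NK cells (130 and 120 CPM in PCSp mice, against 64.5 and 45.4 CPM in PSp mice). The epithelial markers summed to 854 and 474 CPM in the endothelium of PCSp mice, against 236 and 287 CPM in PSp mice. The part of such RNA in the shifts was bounded, as given with the genes it touches, and not tested further. The epithelial class includes 4 clusters with a median under 3000 UMIs, which held 36.9% to 38.9% of its cells but only 4.86% to 5.65% of its UMIs. The share of some clusters in their class differed between genotypes as well. Neutrophil cluster 17 held 30.05% and 19.42% in PCSp mice, against 35.2% and 40.1% in PSp mice. T and NK cluster 18 held 45.43% and 45.9% in PCSp mice, against 34.57% and 29.55% in PSp mice. Macrophage cluster 16 held 25.37% and 33.05% in PCSp mice, against 21.2% and 15.71% in PSp mice. The part of make-up in the shifts of these classes was not tested. Chd1, the gene that separates the genotypes by design, had 60.0 and 56.3 CPM in the epithelium of PCSp mice, against 91.4 and 77.9 CPM in PSp mice, a shift of -0.56. In the other 5 classes its shift was 0.19 to 0.47, so the Chd1 label matched the epithelium. The 3' tag may lie outside the deleted part, so the remaining signal is no measure of intact Chd1.

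The label of the set, a shift in every cell class, held in full for 5 of the 9 genes. For Wdfy1, Cdk5rap1, Wdr89, Glud1 and Idh1 both PCSp mice were above both PSp mice in all 6 classes. Ocel1 and Hebp1 had both PCSp mice below both PSp mice in 5 classes, and the mice overlapped in T and NK cells. Slc15a2 had both PCSp mice above both PSp mice in the 5 classes other than the epithelium, and Rgcc did so in 4 classes, with overlap in epithelial and endothelial cells. In all, 49 of the 54 pairs of gene and class were separated. Of all genes tested in epithelium, 39.3% were separated, 22.1% with PCSp above and 17.3% with PCSp below. The same shares were 32.0% in fibroblasts (17.7% above, 14.3% below), 35.7% in endothelium (18.4% above, 17.3% below) and 37.8% in macrophages and monocytes (23.7% above, 14.2% below). They were 38.3% in neutrophils (23.3% above, 15% below) and 38.3% in T and NK cells (23.9% above, 14.4% below). Separation in the same direction in all 6 classes was found in 31 of 6376 genes (0.486%), 22 of them with PCSp above (0.345%) and 9 with PCSp below (0.141%). The members were selected on this property, so nothing is read from their share. The 5 members separated in all classes were 3 (Cdk5rap1, Wdr89 and Glud1) after the bound for free RNA was subtracted: Wdfy1 then overlapped in neutrophils and Idh1 in 3 classes. The stricter cell filter ended the separation of Idh1 in endothelium. The low-count filter was passed by 53 of the 54 pairs, and Hebp1 in T and NK cells did not pass it.

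**Figure D1:**
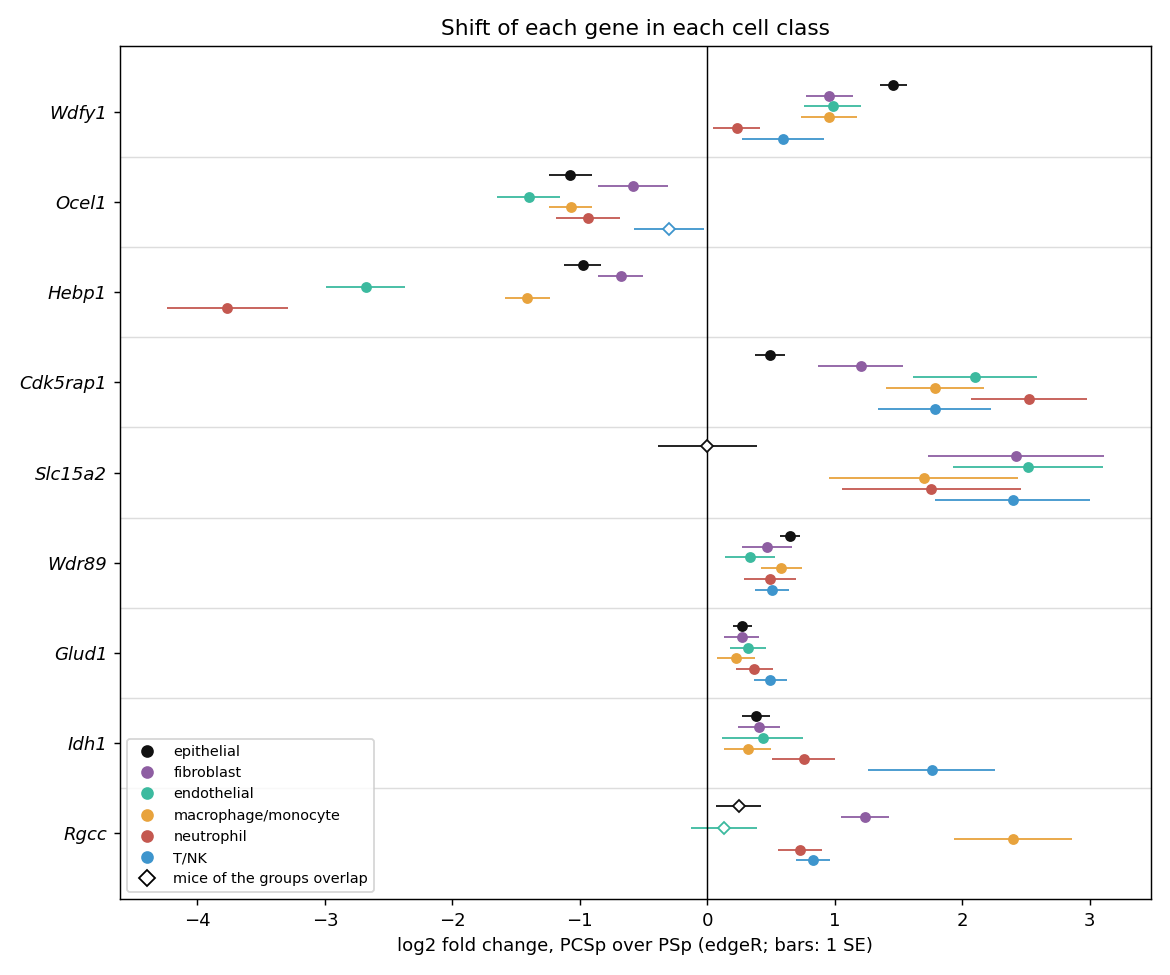
Shift of each of the 9 genes (log2 fold change of PCSp over PSp, horizontal axis, with SE bars, 2 mice per genotype) in each of the 6 cell classes; filled points mark classes in which the mice of the genotypes do not overlap and open diamonds those in which they do. The shift of Wdr89 stays between 0.34 and 0.65 in all 6 classes, while that of Hebp1 reaches -3.77 in neutrophils and that of Slc15a2 is 0.00 in epithelium.

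The shifts of Glud1 (0.22 to 0.50) and Wdr89 (0.34 to 0.65) varied less over the 6 classes than those of the other members. Those of Idh1 were 0.32 to 0.44, apart from neutrophils (0.75) and T and NK cells (1.76). Glud1 had 90.9 and 95.2 CPM in the epithelium of PCSp mice, against 76.5 and 75.0 CPM in PSp mice, a shift of 0.28 ± 0.08 (SE). In T and NK cells it had 135 and 140 CPM in PCSp mice, against 100.2 and 88.3 CPM in PSp mice (0.50 ± 0.13). In macrophages and monocytes the groups were close, with 209 and 223 CPM in PCSp mice against 207 and 152 CPM in PSp mice (0.22 ± 0.15), and without PSp 2 the shift there was 0.024. Its shifts ranged from 0.22 to 0.50 over the 6 classes, so no class stood apart.

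Wdr89 had 71.3 and 65.3 CPM in the epithelium of PCSp mice, against 43.2 and 42.5 CPM in PSp mice (0.65 ± 0.08). In T and NK cells, where its level was highest in each of the 4 mice, it had 154 and 133 CPM in PCSp mice, against 95.9 and 101 CPM in PSp mice (0.50 ± 0.13). In neutrophils, where its level was lowest in each of the 4 mice, it had 31.4 and 25.6 CPM in PCSp mice, against 17.2 and 21.8 CPM in PSp mice (0.49 ± 0.20). The shift of Wdr89 was thus of similar size at the top and at the bottom of its range of levels. In all 10 epithelial clusters with at least 20 cells in every mouse, both PCSp mice were above both PSp mice, and this held in 12 of 17 other clusters, with 1 the other way.

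Idh1 was highest in the epithelium, and its level ran in the descending order epithelium, fibroblasts, macrophages and monocytes, endothelium, neutrophils, T and NK cells in each of the 4 mice. In epithelium it had 173 and 204 CPM in PCSp mice, against 143 and 142 CPM in PSp mice (0.38 ± 0.11). In fibroblasts it had 49.5 and 60.6 CPM in PCSp mice, against 43.8 and 37.7 CPM in PSp mice (0.41 ± 0.16). The largest shift, 1.76 ± 0.50, was in T and NK cells, with 13.5 and 10.0 CPM in PCSp mice, against 3.49 and 3.30 CPM in PSp mice, and rests on 26 and 11 UMIs in PCSp mice, against 4 and 4 in PSp mice. Free RNA of the epithelium could account for up to 46.7% and 70.1% of that level in PCSp mice and for all of it in PSp mice (116% and 122%). In neutrophils, with a shift of 0.75 ± 0.25, the bound was 86.1% and 74.5% in PCSp mice, against 91.5% and 69.6% in PSp mice. The Idh1 level in T and NK cells of PSp mice is thus no higher than the bound, and how much of it is RNA of these cells was not tested. After the bound was subtracted, the genotypes overlapped in neutrophils, endothelium, and macrophages and monocytes.

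**Figure D2:**
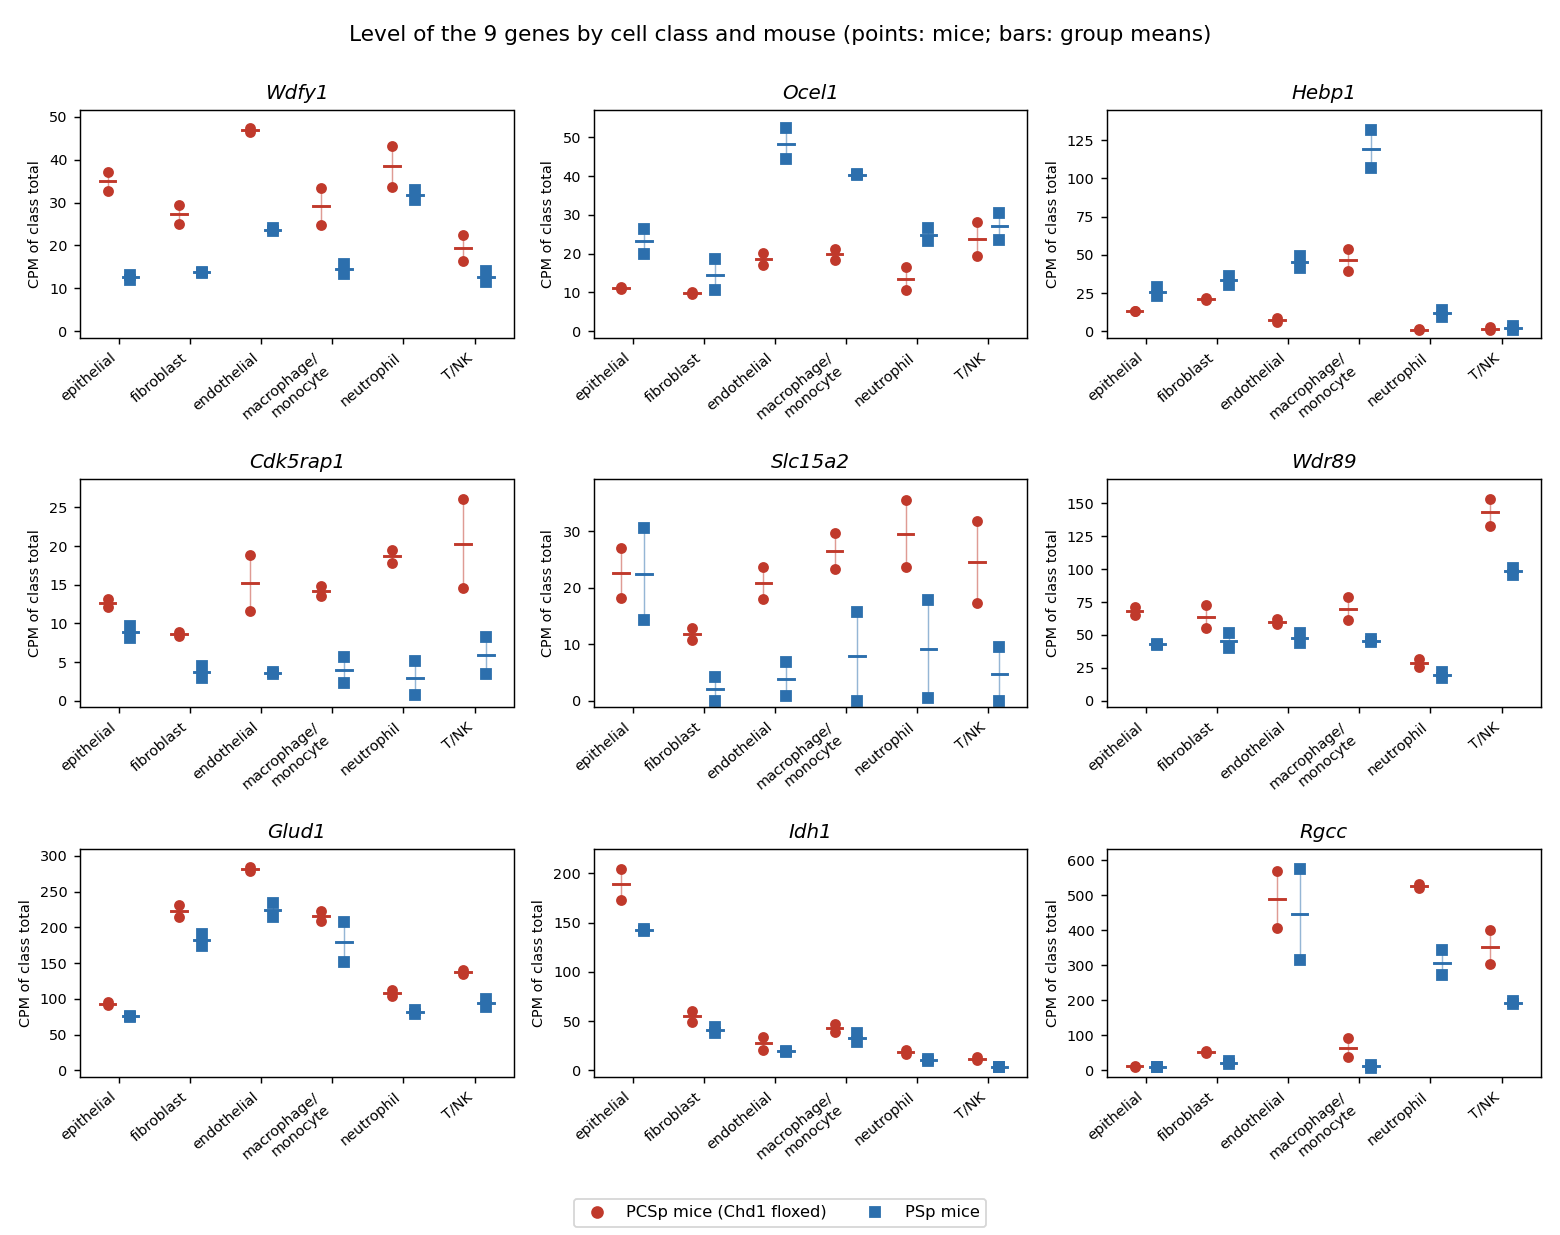
Level of each gene (CPM of the class total, linear axis) in each of the 6 classes, with 1 point per mouse and a bar at the mean of each genotype, the 2 PCSp mice to the left of the 2 PSp mice. Idh1 is highest in epithelium and Wdr89 in T and NK cells in every mouse, and Slc15a2 has 0 UMIs in 3 classes of PSp 2.

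Wdfy1 had its largest shift in the epithelium, the class with the Cre. There it had 32.8 and 37.1 CPM in PCSp mice, against 13.1 and 11.9 CPM in PSp mice, a shift of 1.46 ± 0.10. The mice of each genotype lay close together and the groups were far apart. In fibroblasts it had 25.1 and 29.4 CPM in PCSp mice, against 13.9 and 13.7 CPM in PSp mice (0.96 ± 0.18). In endothelium it had 47.4 and 46.6 CPM in PCSp mice, against 24.0 and 23.4 CPM in PSp mice (0.98 ± 0.23). In macrophages and monocytes, cells in which Toll-like receptors are at work, it had 24.9 and 33.5 CPM in PCSp mice, against 15.8 and 13.3 CPM in PSp mice (0.95 ± 0.22). These 3 shifts lay within 1 SE of each other. The shift was smallest in neutrophils, with 43.2 and 33.7 CPM in PCSp mice, against 32.9 and 30.5 CPM in PSp mice (0.23 ± 0.18), so the nearest mice of the 2 genotypes almost met. T and NK cells had 22.4 and 16.4 CPM in PCSp mice, against 13.9 and 11.6 CPM in PSp mice (0.60 ± 0.32).

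The share of epithelial cells with a Wdfy1 UMI followed the level. With each cell thinned to 1000 UMIs it was 3.24% and 3.04% in PCSp mice, against 1.77% and 1.01% in PSp mice. Unthinned it was 32.3% and 29.8% in PCSp mice, against 18.8% and 18.7% in PSp mice. Median depth in this class ran the other way, at 9251 and 7566.5 UMIs per cell in PCSp mice, against 10440 and 13649.5 in PSp mice. Mrpl44, a gene that overlaps Wdfy1 on the opposite strand, had a shift of -0.25 in epithelium.

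Cdk5rap1 had its smallest shift in the epithelium. It had 13.2 and 12.1 CPM there in PCSp mice, against 9.62 and 8.16 CPM in PSp mice (0.49 ± 0.12). In fibroblasts it had 8.32 and 8.92 CPM in PCSp mice, against 2.92 and 4.47 CPM in PSp mice (1.21 ± 0.33). In neutrophils it had 19.6 and 17.8 CPM in PCSp mice, against 0.730 and 5.09 CPM in PSp mice (2.52 ± 0.45). The neutrophil counts behind this were 63 and 66 UMIs in PCSp mice, against 2 and 18 in PSp mice, and the bound for free RNA is 79.7% of the level in PSp 1. Without PSp 2 the neutrophil shift was 4.52, and without PSp 1 it was 1.85. Endothelium had 31 and 11 UMIs in PCSp mice, against 4 and 5 in PSp mice (2.10 ± 0.48), and T and NK cells 50 and 16 in PCSp mice, against 4 and 10 in PSp mice (1.78 ± 0.44). Macrophages and monocytes had 14.8 and 13.6 CPM in PCSp mice, against 2.25 and 5.69 CPM in PSp mice (1.79 ± 0.38). In PCSp mice the epithelium was thus not the class with most Cdk5rap1, while in PSp mice it stood above every other class in PSp 1 and above all but the T and NK cells in PSp 2. In 15 of 17 clusters outside the epithelium both PCSp mice were above both PSp mice, and in 5 of 10 inside it.

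Slc15a2 did not separate the genotypes in the epithelium, where its shift was the smallest of the 9 members. The epithelium had 18.2 and 27.1 CPM in PCSp mice, against 30.7 and 14.3 CPM in PSp mice, a shift of 0.00 ± 0.39, and PSp 1 was the highest and PSp 2 the lowest. In the 5 other classes the shift was 1.70 to 2.51, with SE of 0.59 to 0.74. Fibroblasts had 12.9 and 10.8 CPM in PCSp mice, against 4.14 and 0 CPM in PSp mice. Endothelium had 23.7 and 18.0 CPM in PCSp mice, against 6.86 and 0.754 CPM in PSp mice. Neutrophils had 23.6 and 35.6 CPM in PCSp mice, against 17.9 and 0.566 CPM in PSp mice.

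Summed over cells outside the epithelium, Slc15a2 CPM differed more between the 2 PSp mice than between PSp 1 and either PCSp mouse. In fibroblasts and in endothelium PSp 1 was nearer to PSp 2. Over all cells outside the epithelium the count was 397 and 330 UMIs in PCSp mice, against 150 and 7 in PSp mice, which is 22.0 and 22.5 CPM in PCSp mice, against 12.1 and 0.542 CPM in PSp mice. In the epithelium of the same mouse, PSp 2, there were 898 UMIs, and the 2 UMIs in its neutrophils are under the bound for free RNA (147% of that level). In macrophages and monocytes there were 118 and 84 UMIs in PCSp mice, against 42 and 0 in PSp mice, and in T and NK cells 61 and 19 in PCSp mice, against 11 and 0 in PSp mice. A count of 0 in PSp 2 allows up to 0.838 CPM in fibroblasts, 1.14 CPM in macrophages and monocytes and 2.48 CPM in T and NK cells (3 counts of that library's class total, counting error only). A fitted shift for these classes depends on how a 0 is handled, and 1 mouse sets its size. Without PSp 2 the shift was 0.71 ± 0.27 in macrophages and monocytes, 0.65 ± 0.30 in neutrophils, 1.52 ± 0.40 in fibroblasts, 1.63 ± 0.51 in endothelium and 1.41 ± 0.43 in lymphoid cells. In epithelium it was then -0.44 ± 0.25. The thinned share of neutrophils with a UMI was 2.41% and 3.05% in PCSp mice, against 1.57% and 0.151% in PSp mice.

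Hebp1, the haem-binding protein whose cleaved N-terminal peptide attracts leukocytes in human cells, was lower in PCSp mice and had the widest range of shifts. Its level was highest in macrophages and monocytes in each of the 4 mice, with 39.2 and 53.7 CPM in PCSp mice, against 107 and 132 CPM in PSp mice (-1.41 ± 0.17). The thinned share of these cells with a UMI was 2.02% and 4.07% in PCSp mice, against 9.79% and 11.3% in PSp mice. In T and NK cells, where Hebp1 had 1 and 3 UMIs in PCSp mice and 4 and 1 in PSp mice, the thinned share was 0% and 0.346% in PCSp mice, against 0% and 0% in PSp mice. Median depth was 2906.5 and 3405 UMIs per macrophage in PCSp mice, against 2703.5 and 2527.5 in PSp mice, and 4578 and 3357 UMIs per T or NK cell in PCSp mice, against 5200.5 and 5001 in PSp mice. The macrophage shares thus lay above the share in T and NK cells, although these were read deeper in 3 of the 4 mice. Epithelium had 13.5 and 13.1 CPM in PCSp mice, against 23.0 and 28.8 CPM in PSp mice (-0.98 ± 0.14), and fibroblasts 20.2 and 22.0 CPM in PCSp mice, against 30.2 and 36.3 CPM in PSp mice (-0.68 ± 0.18).

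The endothelium had 6.08 and 8.47 CPM of Hebp1 in PCSp mice, against 41.1 and 49.0 CPM in PSp mice, a shift of -2.68 ± 0.31 on 10 and 8 UMIs in PCSp mice, against 48 and 65 in PSp mice. The 2 endothelial clusters differed in share. Cluster 26, with Ccl21a, Lyve1 and Prox1 among its top genes, made up 27.97% and 21.4% of the class in PCSp mice, against 8.50% and 15.2% in PSp mice. The endothelial sums of the genotypes thus differ in make-up, and its part in the endothelial shifts was not tested. Within cluster 2 alone Hebp1 had 3.94 and 3.84 CPM in PCSp mice, against 40.6 and 51.5 CPM in PSp mice. In cluster 26 it had 13.3 and 30.6 CPM in PCSp mice, against 57.1 and 31.1 CPM in PSp mice, on 2 to 5 UMIs per mouse. In neutrophils there were 4 and 2 UMIs in PCSp mice, against 26 and 50 in PSp mice, or 1.24 and 0.539 CPM in PCSp mice, against 9.496 and 14.1 CPM in PSp mice (-3.77 ± 0.48). Free RNA of macrophages could account for 241% and 909% of the neutrophil level in PCSp mice, against 59.9% and 90.7% in PSp mice. The neutrophil level in PCSp mice is thus under the bound, and how much of it is RNA of the neutrophils was not tested. This bound takes the highest ratio of the 3 macrophage markers (Lyz2, C1qa and C1qb), 0.0765 and 0.0912 in PCSp mice, against 0.0532 and 0.0975 in PSp mice. The lowest ratios were 0.00514 and 0.00411 in PCSp mice, against 0.00329 and 0.00424 in PSp mice. The bound thus depends strongly on the marker taken. Of the genes that overlap Hebp1 on the opposite strand, Gm19434 had an epithelial shift of -1.76 and Fam234b of -0.28.

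**Figure D3:**
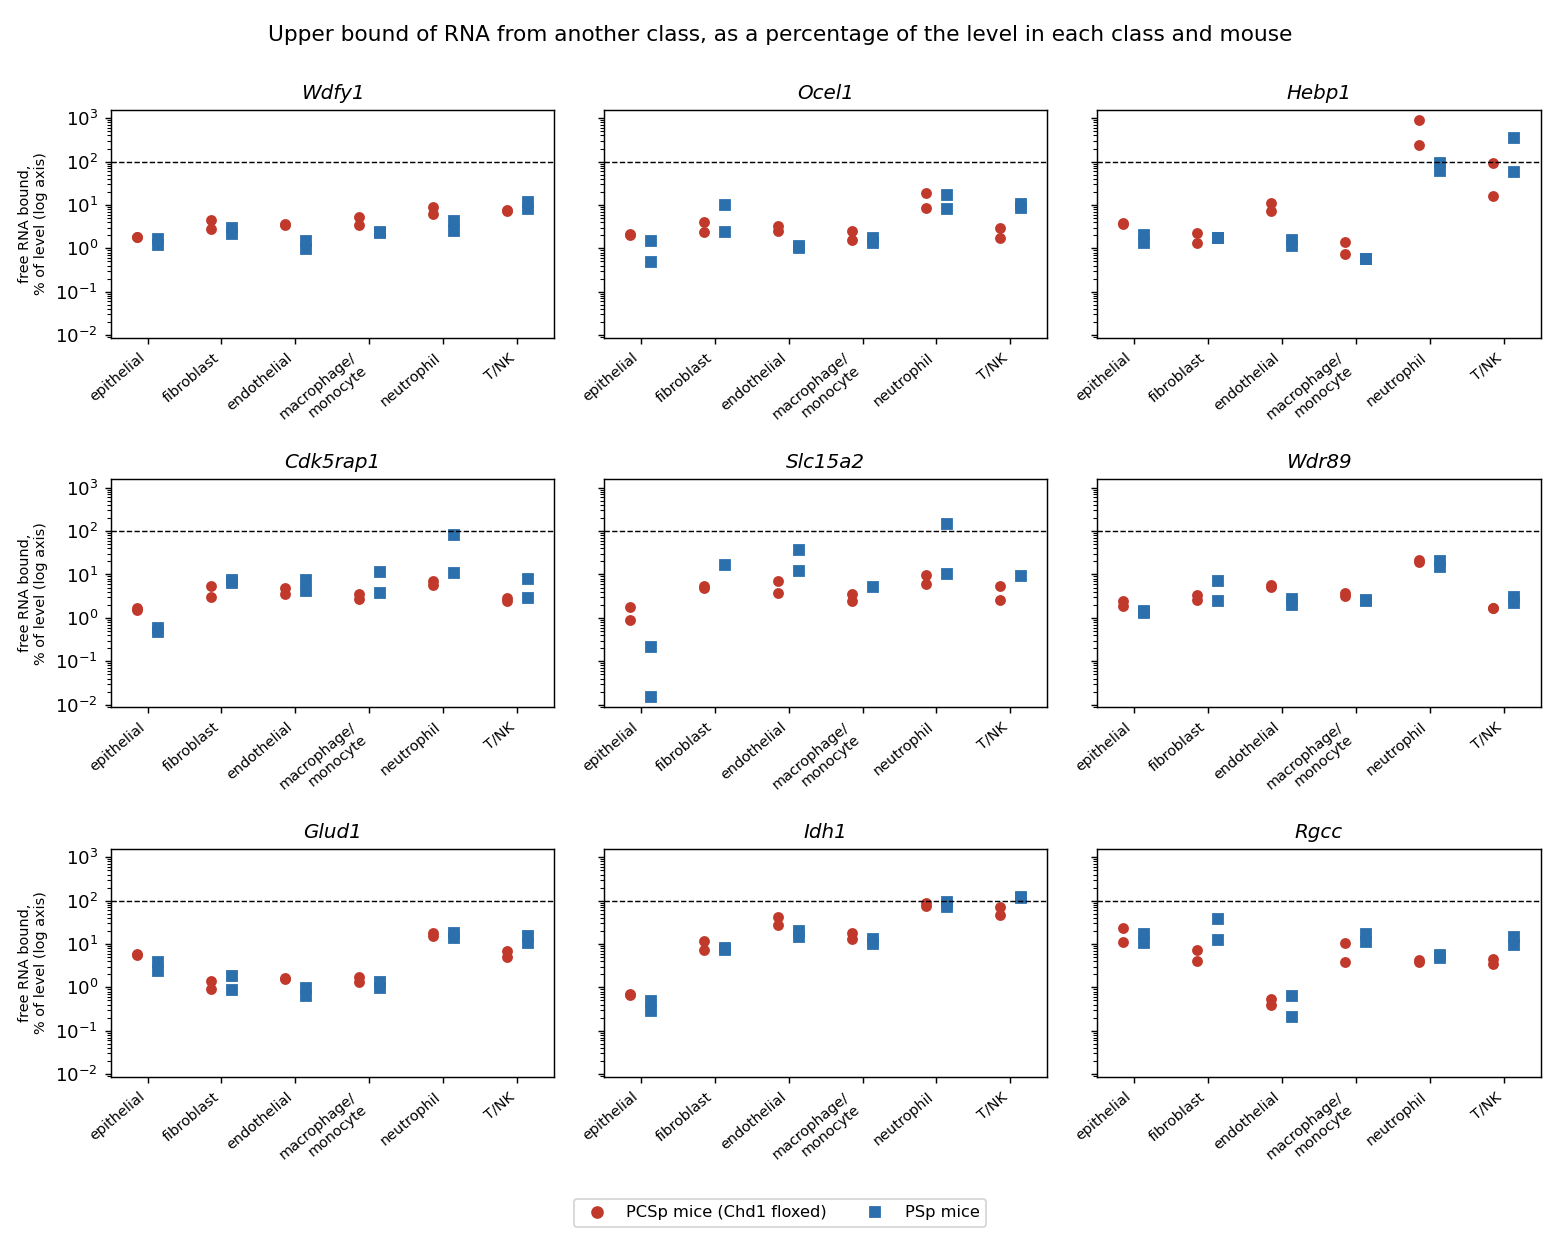
Upper bound of the RNA that any 1 other class could leave in a class (log axis, per mouse and class). It is a percent of the measured level of each gene, and the dashed line marks 100%. Among the highest bounds are those of Hebp1 in neutrophils (59.9% to 909%) and of Hebp1 (up to 346%) and Idh1 (46.7% to 122%) in T and NK cells; 1 PSp mouse each was high for Cdk5rap1 (79.7%) and Slc15a2 (147%) in neutrophils. Slc15a2 of PSp 2 has no point in the 3 classes with 0 UMIs.

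Ocel1 was lower in PCSp mice in epithelial, endothelial and myeloid cells. Epithelium had 11.44 and 10.97 CPM in PCSp mice, against 19.99 and 26.39 CPM in PSp mice (-1.07 ± 0.17). Macrophages and monocytes, with 18.4 and 21.3 CPM in PCSp mice, against 40.5 and 40.2 CPM in PSp mice, had the same shift (-1.07 ± 0.17). Endothelium had 17.0 and 20.1 CPM in PCSp mice, against 52.3 and 44.5 CPM in PSp mice (-1.40 ± 0.25), and neutrophils 16.5 and 10.5 CPM in PCSp mice, against 26.7 and 23.2 CPM in PSp mice (-0.94 ± 0.25). Fibroblasts separated by a small margin, with 9.71 and 10.2 CPM in PCSp mice, against 18.5 and 10.6 CPM in PSp mice (-0.58 ± 0.27), and overlapped after the bound for free RNA was subtracted. Without PSp 1 this shift was -0.14, and without PSp 2 it was -0.90. T and NK cells overlapped, with 19.3 and 28.2 CPM in PCSp mice, against 23.5 and 30.5 CPM in PSp mice (-0.30 ± 0.28). Both PCSp mice were below both PSp mice in 8 of 10 epithelial and 13 of 17 other clusters, and above in none. Nr2f6, which overlaps Ocel1 on the opposite strand, had an epithelial shift of -0.26.

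Rgcc had little RNA in the epithelium and much in endothelium, neutrophils, and T and NK cells. Epithelium had 13.2 and 9.93 CPM in PCSp mice, against 10.6 and 8.62 CPM in PSp mice (0.25 ± 0.18), and the mice overlapped. Endothelium had 408 and 571 CPM in PCSp mice, against 575 and 317 CPM in PSp mice (0.13 ± 0.26), and overlapped too. Neutrophils had 523 and 532 CPM in PCSp mice, against 344 and 272 CPM in PSp mice (0.73 ± 0.17). T and NK cells had 402 and 303 CPM in PCSp mice, against 189 and 197 CPM in PSp mice (0.83 ± 0.13). Rgcc thus separated the genotypes in the leukocytes that hold most of it, and not in the endothelium, which holds as much.

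Fibroblasts had 49.0 and 55.6 CPM of Rgcc in PCSp mice, against 25.3 and 18.2 CPM in PSp mice (1.24 ± 0.19). Macrophages and monocytes had its largest shift, 2.40 ± 0.46, with 37.0 and 91.6 CPM in PCSp mice, against 15.8 and 7.58 CPM in PSp mice, and with a mouse left out it was 1.62 (without PCSp 2) to 3.01 (without PSp 1). Within this class, the cells of cluster 19 had 28.6 and 137 CPM in PCSp mice, against 10.1 and 0.674 CPM in PSp mice. Of the 20 Rgcc UMIs in the macrophages of PSp 2, 9 were in 1 cell.

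The comparison of epithelium with the other classes asks whether a shift differs where the Cre acts. It was tested in 1 fit over all 6 classes with mouse as a block, as the shift in epithelium minus the mean of the shifts in the other 5, with adjustment over 14654 genes. Only 3 genes (0.0205%) passed: Chd1 (-0.91, edgeR quasi-likelihood test, adjusted p = 0.0167), Ifi207 (-1.77, adjusted p = 0.0167) and Ifi27l2a (-1.56, adjusted p = 0.0270). The floxed gene itself was thus called by this test, but with all other classes summed into 1 in place of their mean, 0 genes passed. With a mouse left out, the number that passed was 10 without PSp 1, 19 without PSp 2, 1 without PCSp 1 and 2 without PCSp 2. None of the 9 members passed in edgeR, 6 had an unadjusted p under 0.05, and DESeq2 called 1, Slc15a2 (adjusted p = 0.0462). The members were picked for their shifts in these same classes, so the test is not independent of the choice.

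The differences of 3 members have intervals that include 0. The shift of Wdr89 in epithelium minus that elsewhere was 0.16 (95% interval -0.11 to 0.43, edgeR adjusted p = 1), that of Glud1 was -0.08 (-0.36 to 0.19, adjusted p = 1) and that of Ocel1 -0.23 (-0.69 to 0.22, adjusted p = 1). For Wdr89 and Glud1 a difference beyond about 0.43 in log2 lies outside the interval, which is the bound these data give and does not show equal shifts. Positive differences with an interval clear of 0 were found for Wdfy1, at 0.69 (0.33 to 1.04, adjusted p = 0.339), and Hebp1, at 0.86 (0.31 to 1.42, adjusted p = 0.686). For Hebp1 a positive difference means a smaller loss in epithelium. Negative ones were Slc15a2, at -2.53 (-3.57 to -1.48, adjusted p = 0.114), Cdk5rap1, at -1.45 (-2.08 to -0.81, adjusted p = 0.165), Rgcc, at -0.83 (-1.42 to -0.25, adjusted p = 0.781), and Idh1, at -0.39 (-0.75 to -0.03, adjusted p = 1). These intervals are for single genes and are not widened for the number of genes tested.

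**Figure D4:**
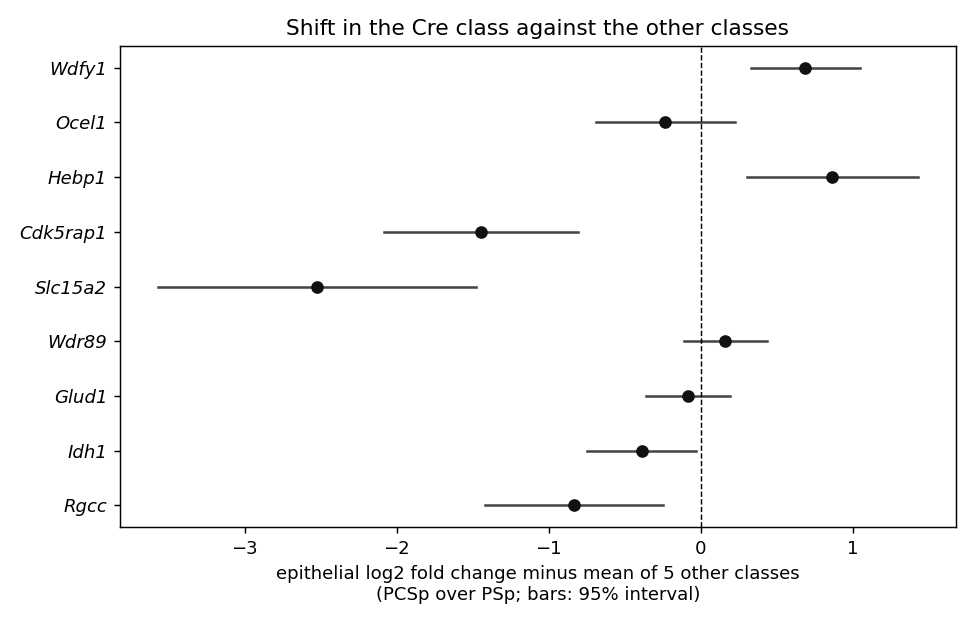
Shift in epithelium minus the mean shift of the 5 other classes (log2, horizontal axis) for each gene, with the 95% interval of the fit. Slc15a2 at -2.53 and Cdk5rap1 at -1.45 lie left of 0, Wdfy1 at 0.69 and Hebp1 at 0.86 right of it, and the intervals of Wdr89, Glud1 and Ocel1 include 0.

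A test of any difference among the 6 classes, with no class named first, called 9 of 14654 genes (0.0614%), and 77 without PSp 1, 81 without PSp 2, 20 without PCSp 1 and 16 without PCSp 2. This test too is not independent of the choice of members, which were picked for their shifts in these same classes. Among the called genes, Hebp1 was the only member (edgeR, adjusted p = 0.0188). Its shift in neutrophils was lower than that in epithelium by -2.78 ± 0.49 (adjusted p = 0.0411), and in endothelium by -1.72 ± 0.37 (adjusted p = 0.115). The neutrophil counts of Hebp1 in PCSp mice lie within the bound for free RNA, and with that bound subtracted the test over all classes gave an adjusted p of 0.580. That bound takes the highest marker ratio, and a subtraction at the lowest ratio was not tested. Other members stood at adjusted p = 0.134 for Rgcc, 0.240 for Wdfy1, 0.250 for Cdk5rap1, 0.318 for Slc15a2, 0.808 for Idh1, 0.922 for Ocel1 and 1 for Wdr89 and Glud1. In single classes against epithelium, Rgcc in macrophages and monocytes differed by 2.18 ± 0.44 (adjusted p = 0.0545) and Wdfy1 in neutrophils by -1.17 ± 0.22 (adjusted p = 0.0934), neither past the threshold.

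Leaving out 1 mouse at a time moved some members more than 1.5 times. Without PSp 2, the epithelial difference of Cdk5rap1 was -2.28 (edgeR, adjusted p = 0.00255) and its test over all classes had an adjusted p of 0.0142. Without PSp 1, the epithelial difference of Slc15a2 was -8.05 (adjusted p = 5.8e-05), since PSp 2 alone then stands for the PSp mice and is at or near 0 outside the epithelium; the test over all classes then gave 0.000326 for it. Hebp1 in the test over all classes had an adjusted p of 0.0586 without PSp 2, 0.105 without PCSp 1 and 0.189 without PCSp 2, so its call needed both PCSp mice and PSp 2. Rgcc passed that test without PCSp 1 (adjusted p = 0.00385). With 1 mouse left in a group, the lone mouse is assumed to vary like the others. Without PSp 2, the epithelial difference of Slc15a2 was -1.62 (adjusted p = 0.0621).

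By position, the 9 genes lie on 7 chromosomes. Ocel1 lies at chr8:71371298-71379361 on the plus strand and Glud1 at chr14:34310727-34345265 on the plus strand (GENCODE M21, GRCm38). On the minus strand are Wdfy1 at chr1:79702262-79776143, Idh1 at chr1:65158616-65186500, Hebp1 at chr6:135137522-135198022, Cdk5rap1 at chr2:154335380-154373010, Slc15a2 at chr16:36750177-36784962, Wdr89 at chr12:75630596-75669537 and Rgcc at chr14:79288756-79301645. Wdfy1 and Idh1 are 14.6 Mb apart, and Glud1 and Rgcc are 45.0 Mb apart. Of the 74 genes with a start within 1 Mb of a member that were tested in every class, 2 (2.703%) separated the genotypes in the same direction in all 6 classes, against 0.486% of all genes. Within 5 Mb they were 2 of 263 (0.76%), and both lie near Ocel1, so the other 8 members had none. One is Use1, which starts 0.004 Mb before Ocel1 on the chromosome and was higher in PCSp mice, opposite to Ocel1, with shifts of 0.13 to 0.24.

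The genes most like the members were separated alike in all 6 classes, with a mean of at least 5 CPM. They were ranked by their smallest shift over the classes, largest first. The ranking itself picks large shifts, so nothing is read from their size beside that of the members. Reg3b, a secreted antimicrobial lectin, had shifts of 1.73 to 2.99, its relative Reg3g 0.90 to 1.31, and Igkc, the immunoglobulin kappa constant region, 1.43 to 2.34. Below PSp in every class were Trim12a (-1.56 to -1.05), Trim34a (-1.40 to -0.96) and Trim30d (-1.81 to -0.66), neighbours on chromosome 7, and Ddx60 (-0.87 to -0.48), a helicase of antiviral defence. The mitochondrially encoded mt-Nd3 had shifts of -0.98 to -0.91, the narrowest range of the group. Gm43305 had shifts of 0.48 to 0.93. Igkc is 1 of the 10 markers used to name B and plasma cells, and these markers summed to 81.1 and 22.0 CPM in the epithelium of PCSp mice, against 17.1 and 5.70 CPM in PSp mice. Reg3b and Reg3g were among the 10 top genes of the epithelial clusters 0 and 1. The part of free RNA in the shifts of Igkc, Reg3b and Reg3g was not tested.

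The relatives of the members in their pathways did not pass within any class in edgeR. The lists cover enzymes of 2-oxoglutarate and the citric acid cycle, haem synthesis and binding, Toll-like receptor adaptors and WDFY relatives, proton-coupled peptide transporters, transfer RNA modification, the occludin and ELL family, and complement receptors with mitotic kinases. They hold 105 genes that are not members and gave 501 tests over the 6 classes. None passed in either direction in edgeR, 30 had an unadjusted p under 0.05, and DESeq2 called 2, Hebp2 and Irf7 in epithelium. Hebp2 had both PCSp mice above both PSp mice in all 6 classes, opposite in direction to Hebp1. It passed the low-count filter only in epithelium (shift of 0.50) and fibroblasts (1.46). It is 1 gene of 105, and nothing is read from it. The share of all genes that passed was 0.0% in epithelium, fibroblasts and endothelium, 0.0799% in macrophages and monocytes, 0.0876% in neutrophils and 0.473% in T and NK cells, so a count of 0 is near that background. In epithelium, 1262 of all genes had an unadjusted p under 0.05 and DESeq2 called 184, in fibroblasts 459 and 6, and in endothelium 593 and 6. The median shift of the 2-oxoglutarate list was -0.04 to 0.11 over the classes, and that of the transfer RNA list -0.15 to 0.02, beside medians of all genes of -0.0075 to 0.0014.

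Each library is 1 mouse, and the labels give no litter, batch or date. What all classes of a mouse share, be it the animal or its library, and the genotype cannot be told apart beyond the agreement of the 2 mice in each group.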

How the data were processed

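The authors deposited UMI counts per gene and cell barcode, made with Cell Ranger 6.1.2 and mm10 per the submitters' processing notes, with no normalization. Samples fall into 2 PCSp and 2 PSp mice by their labels. The members and gene lists were chosen with earlier results of these data known. The genes named are the 9 members, list genes that passed, the 10 genes most like the members (largest smallest shift over the classes) and neighbours within 1 Mb that separated alike in every class. An allele shared by all mice and 1 gene that this rule names are not reported here.

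Barcodes were kept from 300 genes and 500 UMIs upward, with mitochondrial UMIs up to 20%. Scrublet scores removed 0.8% of barcodes per 1000 as doublets, 545 and 572 in PCSp mice and 237 and 308 in PSp mice. Counts were scaled to 10000 per cell and clustered with scanpy 1.11.5 (2000 variable genes, 30 components, Leiden resolution 1), and clusters were named from fixed markers, at least 3 of them. Counts were summed per mouse and class and fitted with edgeR 4.0.16 (R 4.3.3; quasi-likelihood test, TMM, filterByExpr), two-sided, with Benjamini-Hochberg adjustment over all genes and a threshold of 0.05. The difference between classes used 24 sums with mouse, class and class by genotype as terms. DESeq2 1.42.0 was an alternative. The bound for free RNA is the level of a gene in the class that could leave most, times the highest ratio between classes of its 3 most abundant markers. The fits were tested on simulated data. Libraries shared 8 to 19 barcodes with each other (0.147% to 0.306%), and their counts differed by 38.3 to 114 chi-square per degree of freedom, so none was a copy. Precision in small classes is limited by counts under 100 UMIs per gene and mouse. Other alternatives were size factors, no filter on low counts, stricter cell filters, Leiden resolution 2, subtraction of the free RNA bound, doublets kept, and each mouse left out.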

Additional observations from a re-analysis of the deposited data

Results flagged for a closer look

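Hebp1 differed in its genotype shift among the 6 cell classes (edgeR interaction test over all classes, adjusted p = 0.0188). It was picked for its shifts in these same classes, so the test is not independent of that choice. Its shift in neutrophils minus that in epithelium was -2.78 in log2, with 4 and 2 UMIs in the neutrophils of PCSp mice, against 26 and 50 in those of PSp mice. The PCSp counts lie under the bound for free RNA from macrophages (241% and 909% of the level), and after that bound was subtracted the adjusted p was 0.580. The bound takes the highest of 3 marker ratios, 0.0765 and 0.0912 in PCSp mice, where the lowest were 0.00514 and 0.00411. A subtraction at the lowest ratio was not tested. The macrophage shift itself, on 156 and 194 UMIs in PCSp mice, against 285 and 347 in PSp mice, kept its direction in clusters 16, 19 and 20. In cluster 16 the level was 2.30 and 9.11 CPM in PCSp mice, against 36.0 and 24.2 CPM in PSp mice.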

How the results depend on the processing

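The labels give no pairs of mice across the genotypes, so no such pairing was used. Classes of the same mouse were tied by the mouse term of the fit over all 6 classes and otherwise taken as independent. Within classes, 6 of 581 recomputed member shifts changed sign, and 51 moved by more than the spread between mice. The sign changes were all in pairs where the mice overlap: Slc15a2 in epithelium (3 settings), Rgcc in endothelium (2) and Ocel1 in T and NK cells (1). With a mouse left out, the epithelial difference was -0.50 to 0.11 for Ocel1 and -0.11 to 0.011 for Glud1, above 0 without PSp 2. Members separated in all 6 classes numbered 3 after free RNA was subtracted, 4 under the stricter filter or with doublets kept, and 5 to 8 with a mouse left out, which makes separation easier. Separated pairs of 54 were 44 with free RNA subtracted, 47 with doublets kept, 48 under the stricter filter and 49 to 53 with a mouse left out. Members called in the epithelial difference were 3 with no filter, 1 in DESeq2 and 0 to 1 with a mouse left out; in the test over all classes they were 5 with no filter, 0 with free RNA subtracted and 0 to 2 with a mouse left out. Cdk5rap1 had an adjusted p of 0.000158 in the epithelial difference with no filter.

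Genes called with no filter were 10 in epithelium, 152 in fibroblasts, 179 in endothelium, 51 in macrophages, 194 in neutrophils, 145 in T and NK cells, 72 in the epithelial difference and 493 over all classes. With DESeq2 they were 184, 6, 6, 22 and 15 in the first 5 classes and 5 in the difference. With doublets kept they were 5 in endothelium, 4 in macrophages, 14 in neutrophils and 12 in T and NK cells. The stricter filter gave 6 in endothelium and 5 over all classes; subtraction gave 2 in neutrophils and 7 in the difference, and summing all other classes gave 0 in the difference. Leaving out a mouse gave 0 to 2 in epithelium, 9 to 131 in fibroblasts, 14 to 140 in endothelium, 9 to 59 in macrophages, 7 to 408 in neutrophils, 87 to 131 in T and NK cells, 1 to 19 in the difference and 16 to 81 over all classes. The cause of these changes was not tested. DESeq2 was not run for the test over all classes. With doublets kept the genotypes overlapped in Wdfy1 in neutrophils, Slc15a2 in endothelium and Idh1 in 2 classes, and Ocel1 and Rgcc separated in 1 class more each. Size factors and the finer clustering moved none of these counts by over 1.5 times. Depth limits Hebp1 in T and NK cells and Cdk5rap1 outside the epithelium of PSp mice, where classes hold 2 to 18 UMIs.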

Other observations

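The 3 classes too small for the fits gave values for some members. In B and plasma cells Slc15a2 had 14 and 15 UMIs in 59 and 75 cells of PCSp mice, against 13 and 0 UMIs in 37 and 21 cells of PSp mice. Cdk5rap1 had 7 and 5 UMIs there in PCSp mice, against 0 and 0 in PSp mice. Wdr89 was above in both PCSp mice there and Ocel1 below, Hebp1 had 0 to 1 UMIs per mouse, and Wdfy1, Glud1, Idh1 and Rgcc overlapped like Slc15a2. In smooth muscle cells and pericytes Wdfy1 had 49.8 and 66.1 CPM in PCSp mice, against 27.2 and 18.4 CPM in PSp mice, on 7 to 23 UMIs. Ocel1 had 8.65 and 4.13 CPM there in PCSp mice, against 38.9 and 18.4 CPM in PSp mice. Wdr89 went against its direction elsewhere, with 45.4 and 24.8 CPM in PCSp mice, against 46.6 and 47.0 CPM in PSp mice. The other 6 members overlapped. Idh1 had 34.6 and 20.6 CPM in PCSp mice, against 50.5 and 30.7 CPM in PSp mice. Slc15a2 had 10.8 and 45.4 CPM in PCSp mice, against 38.9 and 8.18 CPM in PSp mice, so the PSp 2 mouse was not at 0 in these cells.

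Within the fibroblasts, cluster 25 held more Rgcc than the class average, with 143 and 115 CPM in PCSp mice, against 45.6 and 61.0 CPM in PSp mice. It made up 11.02% and 20.02% of fibroblasts in PCSp mice, against 9.85% and 6.52% in PSp mice. In cluster 23 of the T and NK cells Rgcc had 889 and 772 CPM in PCSp mice, against 493 and 453 CPM in PSp mice.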
